A study of Mus musculus with 15 samples.

Results

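The 10 Polycomb group genes Ezh1, Ezh2, Eed, Suz12, Jarid2, Mtf2, Rnf2, Ring1, Cbx7 and Pcgf6 were followed through RNA-seq of 15 samples of mouse embryonic stem cells (ESC). They were found by their symbol in both deposited count tables, which list 21662 genes, and all 10 were present and had enough counts to be tested in both. The study asked what loss of Hmga1, a chromatin protein that contacts AT-rich DNA through its AT-hooks, does to transcription. The first experiment held 3 samples of the wild-type (WT) parental line and 2 each of the Hmga1 KO line, its Hmga1 add-back and its Hmga2 add-back. The second held 3 WT samples and 3 of an Hmga1 full deletion.

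The cells grew with serum and LIF, on feeder cells or gelatine, and came from a mixed 129Sv and C57Bl/6 background. In the Hmga1 KO, Cas9 cutting at an exon boundary shifted the reading frame of Hmga1. In the full deletion, a pair of cuts in the untranslated regions removed its coding sequence. The add-backs are KO cells that carry Hmga1 or Hmga2 cDNA with a biotin tag, driven by the CAG promoter from 1 defined genomic site. The parental line expresses the biotin ligase BirA. KO and full-deletion cells were isolated as clones, so each genotype here is 1 line, and an effect of the genotype cannot be told apart from a trait of that clone. The add-backs descend from KO cells and share whatever those cells acquired.

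Polycomb proteins work in assemblies that keep developmental genes silent. Polycomb repressive complex 2 (PRC2) methylates histone H3 at lysine 27, and Polycomb repressive complex 1 (PRC1) ubiquitinates histone H2A and compacts chromatin. In ESC many genes of later lineages carry both marks, and ESC that lack PRC2 can still be cultured but differentiate poorly.

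Summed counts ranged from 13465399 to 34952136 per sample in the first experiment, and batch a held more counts than batch b in each genotype. They ranged from 14832310 to 21708492 in the second. Levels are given as RPKM, counts divided by the exonic length and by the library size after TMM normalization, which was done separately in each experiment. Hmga1 had 156 ± 62.4 RPKM in WT (SD, n = 3) and 76.5 ± 41.7 in the KO (SD, n = 2), and 166 ± 12.8 in the second WT against 5.75 ± 0.375 in the full deletion (SD, n = 3 each). Its log2 fold change was -1.29 in the KO (adjusted p = 0.0534) and -4.86 in the full deletion (adjusted p = 1.06e-05, both from edgeR's quasi-likelihood test). A count over all exons does not separate intact from edited transcripts, so the KO label is checked only in part.

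The add-back lines were checked in the same way. Hmga1 stood at 89.9 and 59.96 RPKM in the samples labelled Hmga1 add-back (74.9 ± 21.2, SD, n = 2), and at 67.5 and 49.4 in the Hmga2 add-back (58.4 ± 12.8, SD, n = 2). Against the KO, which had 105.99 and 46.96, the log2 fold change of Hmga1 in the samples labelled Hmga1 add-back was 0.04 (SE 0.17, adjusted p = 0.9999 by edgeR), and against WT it was -1.25 (adjusted p = 0.0526 by edgeR). The counted Hmga1 transcript was thus not seen to return, so the count does not bear out that label, and the cause was not tested. The paper reports, by Western blot, no Hmga1 protein in the KO and a return to near the WT level in its Hmga1 add-back. Its measure is protein, while the count covers all exons and takes in edited transcripts of the KO. The paper also names an Hmga1 pseudogene, and reads with several equally good alignments were placed at random. The count alone therefore does not decide whether the add-back worked. Hmga2 stood at 58.2 and 51.9 RPKM in the Hmga2 add-back and at 2.99 to 5.56 in the 7 other samples of the first experiment, a log2 fold change of 3.86 against the KO (SE 0.20, adjusted p = 0.000558 by edgeR).

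WT b of the second experiment stood apart. TMM gave it a normalization factor of 0.752, and the other 5 samples 0.986 to 1.12, and its 10 most abundant genes took 8.78% of the counts, against 4.67% to 5.38%. The chi-square per degree of freedom over genes was 111 and 106.7 against the other WT samples, and 3.48 to 5.69 in the other replicate pairs of that experiment. All 8 ESC markers (Pou5f1, Sox2, Nanog and others) were above 1 CPM in every group mean. Of 8 fibroblast markers, which feeder cells would bring, 6 were under 1 CPM in every group.

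The members' promoters are mostly GC-rich. RefSeq (GRCm38.p6) gave 12 windows of 300 bases around a transcription start for the 10 members. Of these, 11 had less AT than the median of all 32851 windows (47.3%), and 11 had more CpG dinucleotides than the median of 7. AT content ran from 26.0% at Ring1 to 54.3% at a downstream start of Mtf2. The 150 bases before the start are printed for Eed and Rnf2, which fell in the full deletion, for Ring1, the paralog of Rnf2, and for Ezh1, which had the largest estimates in the add-backs. Each was matched to the NCBIM37 genome of the count tables and is read 5′ to 3′ on the minus strand, which all 4 genes are transcribed from. Capitals mark unbroken runs of at least 5 A or T, the kind of sequence an AT-hook contacts. The paper reports that longer A/T runs did not appear to be bound more than base composition predicts. It also reports less Hmga binding at CpG islands. Binding of Hmga1 to these stretches was not tested.
Eed, chr7:97129487-97129636: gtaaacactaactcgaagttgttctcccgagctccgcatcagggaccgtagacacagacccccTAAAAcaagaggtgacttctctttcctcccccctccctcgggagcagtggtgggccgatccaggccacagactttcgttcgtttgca
Rnf2, chr1:153348122-153348271: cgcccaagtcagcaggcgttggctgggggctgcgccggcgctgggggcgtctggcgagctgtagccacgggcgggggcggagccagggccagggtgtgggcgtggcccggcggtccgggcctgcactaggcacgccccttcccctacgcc
Ring1, chr17:34161626-34161775: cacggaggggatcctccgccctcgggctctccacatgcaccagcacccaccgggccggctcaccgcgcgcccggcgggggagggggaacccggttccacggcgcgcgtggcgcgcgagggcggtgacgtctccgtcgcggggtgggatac
Ezh1, chr11:101087778-101087927: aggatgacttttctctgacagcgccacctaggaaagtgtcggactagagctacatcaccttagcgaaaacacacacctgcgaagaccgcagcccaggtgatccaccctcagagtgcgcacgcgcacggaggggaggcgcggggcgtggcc
Only the Eed stretch among these 4 holds such a run. Over the full windows, 9 of the 12 held one, against 84.5% of all windows. The letters GCGGGAA, a core of the E2F motif searched on both strands, occurred in 1 of the 12 windows, that of Suz12, and in 4.60% of all windows. Letters of the YY1 motif (AAGATGG) and of NRF1 occurred in 0 of 12, against 6.34% and 0.971% of all windows.

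Over the whole gene, from first to last annotated base, the members were richer in AT than most genes. Their median was 58.1%, against 54.3% over the 19319 genes matched to 1 position (89.2% of the tables), and 8 of 10 lay above that median. Suz12 on chromosome 11 (79806608 to 79847625) had the highest value, 61.7%. Ring1 on chromosome 17 (34157737 to 34161625), the shortest member, had the lowest, 42.4%. Rnf2 spans 153316536 to 153347953 on chromosome 1 and Eed spans 97103166 to 97129493 on chromosome 7. No member shared exons with another gene on its own strand, and the counts were made by strand.

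Transcript levels of the members differed widely. In WT of the first experiment Eed stood highest, at 245 ± 32.6 RPKM, and Ring1 lowest, at 3.39 ± 0.710 (SD, n = 3). Between them came Jarid2 (148 ± 5.05), Mtf2 (129 ± 34.1), Rnf2 (91.4 ± 15.8), Ezh2 (56.3 ± 5.96), Suz12 (51.6 ± 7.14), Cbx7 (27.0 ± 6.23), Pcgf6 (16.6 ± 1.38) and Ezh1 (4.55 ± 1.05). The ranges of neighbours overlapped for Jarid2 and Mtf2, Mtf2 and Rnf2, Ezh2 and Suz12, and Ezh1 and Ring1. Within each of these WT samples Mtf2 still lay above Rnf2, Ezh2 above Suz12 and Ezh1 above Ring1, in WT a by little (4.27 against 4.09 for Ezh1 and Ring1). Jarid2 and Mtf2 have no settled order, since Mtf2 was the higher only in WT c (148.4 against 146.5). Each complex thus had a major and a minor catalytic subunit at the transcript level. Ezh2 exceeded Ezh1 by 12.5-fold (geometric mean of the 3 WT samples) and Rnf2 exceeded Ring1 by 27.1-fold, and in the second WT these ratios were 16.4 and 36.0.

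**Figure D1:**
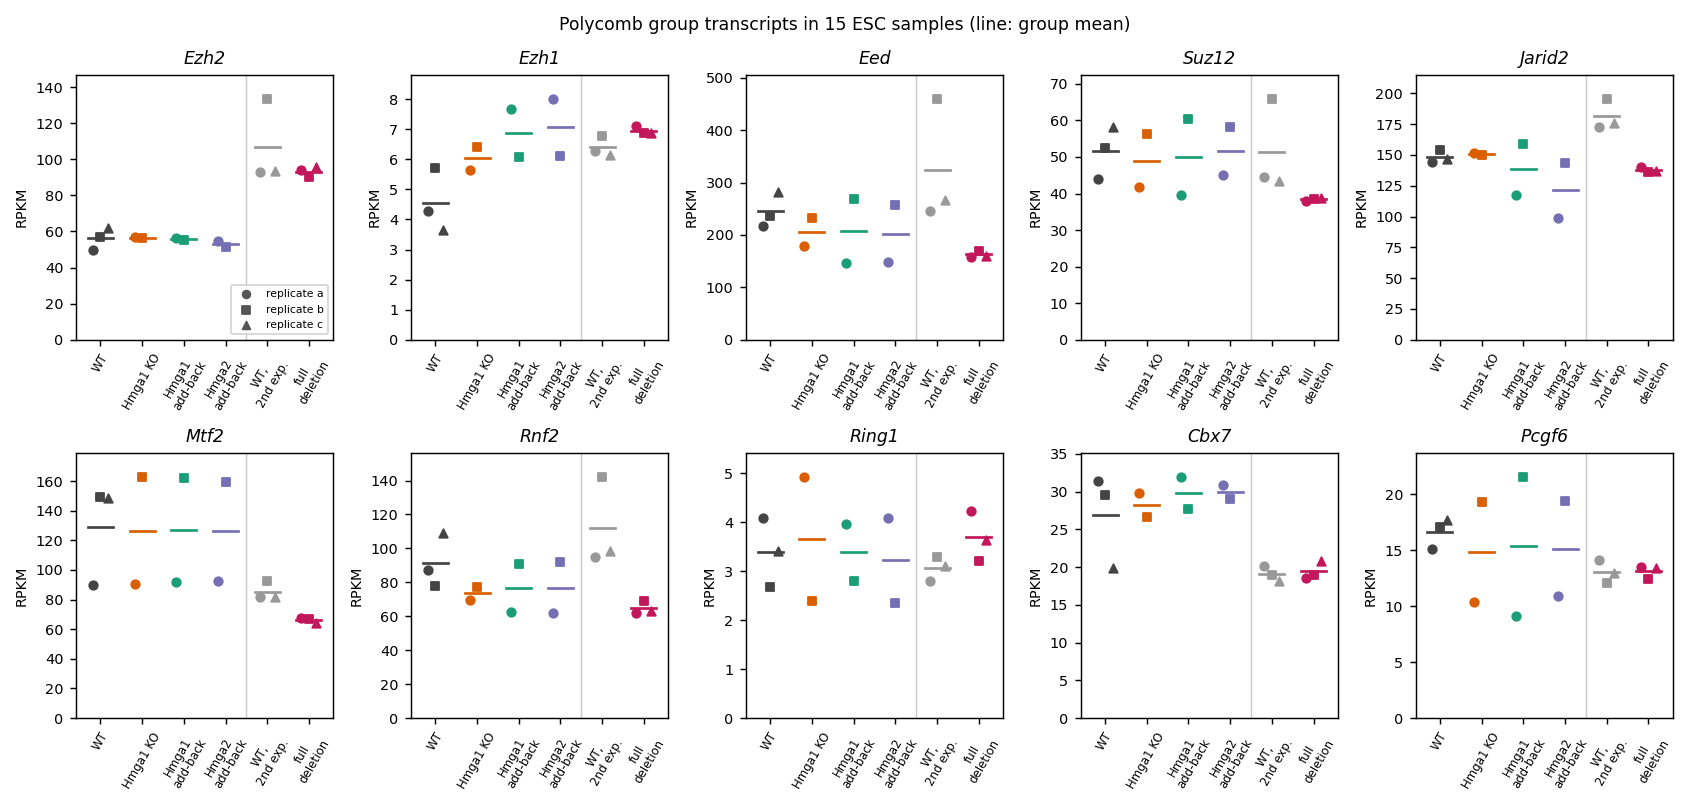
RPKM of each Polycomb group gene (y axis, linear from 0) in every sample, by group (x axis). Symbols give the replicate letter, horizontal lines the group mean, and a grey line divides the 2 experiments. Among the samples of the second experiment, WT b is the highest for Eed, Rnf2, Ezh2, Suz12, Jarid2 and Mtf2, and for these genes the 3 full-deletion samples lie close together.

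The full deletion was compared with its own WT samples to ask which transcripts differ when no coding sequence of Hmga1 is left. Eed and Rnf2 fell, and no member rose. Counted at an adjusted p under 0.05 at any fold, these were 2 of 10 members, where 8.25% of the 13098 genes tested passed and 3.77% passed as lower. The median log2 fold change was -0.28 over the members and 0.04 over all genes tested. At the threshold of the study, an adjusted p under 0.01 and a fold of at least 2, 0 members and 0.0687% of all genes passed by edgeR. Limma-trend gave 0 members too, and DESeq2's Wald test gave 1, Eed (-1.04, adjusted p = 0.00205 by DESeq2). DESeq2 called 24.7% of all genes at an adjusted p under 0.05 at any fold. Its share of all genes at the threshold of the study was not counted, so the edgeR share is no measure for that call. At an unadjusted p under 0.05 there were 5 members, where 37% of all genes tested lay under it.

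Eed encodes the PRC2 subunit that binds methylated lysine 27 and holds the catalytic subunit in an active form. WT a, b and c held 246, 460 and 268 RPKM, and the deletion samples 158, 170 and 160. All 3 deletion samples lay below all WT samples, and WT b lay far above the other 2. The log2 fold change was -0.997 (SE 0.24, adjusted p = 0.0474 by edgeR).

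Rnf2 encodes the main E3 ubiquitin ligase of PRC1. It had 94.9, 142 and 98.6 RPKM in WT and 61.9, 69.0 and 63.2 in the deletion. The groups did not overlap, and WT b was again the highest. The log2 fold change was -0.79 (SE 0.17, adjusted p = 0.0404 by edgeR).

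The other core and accessory subunits of PRC2 did not pass. Suz12, the scaffold of PRC2, had 44.5, 65.97 and 43.4 RPKM in WT and 37.9, 38.6 and 38.7 in the deletion, with a log2 fold change of -0.42 (SE 0.17, adjusted p = 0.124 by edgeR). Jarid2, which recruits PRC2 and stimulates it, had 173, 196 and 176 against 140, 136 and 137, with a value of -0.40 (SE 0.12, adjusted p = 0.0678 by edgeR). Mtf2, a Polycomb-like protein that brings PRC2 to CpG-rich DNA, had 81.8, 92.8 and 81.5 against 67.5, 66.6 and 64.2, with a value of -0.37 (SE 0.11, adjusted p = 0.0677 by edgeR). For these 3 genes too, every deletion sample lay below every WT sample. How many of all genes separate in this way was not counted, and 37% of all genes tested had an unadjusted p under 0.05.

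The methyltransferases themselves differed less. Ezh2, the main enzyme of PRC2, had 92.8, 134 and 93.6 RPKM in WT and 93.8, 90.0 and 95.9 in the deletion, so that the groups overlapped. Its log2 fold change was -0.19 (SE 0.16, adjusted p = 0.395 by edgeR). Ezh1, its weaker paralog, had 6.28, 6.76 and 6.16 against 7.10, 6.87 and 6.89, a value of 0.12 (SE 0.09, adjusted p = 0.356 by edgeR). The samples of Ezh1 did not overlap between the groups, but their distance was small.

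Among the other PRC1 genes, Ring1, the paralog of Rnf2, had 2.80, 3.28 and 3.10 RPKM in WT and 4.22, 3.21 and 3.64 in the deletion. The groups overlapped, and the log2 fold change was 0.27 (SE 0.16, adjusted p = 0.247 by edgeR). Its raw counts were only 109 to 163 in these samples. Cbx7, the chromodomain subunit that reads methylated lysine 27 in ESC, had a value of 0.03 (SE 0.10), and Pcgf6, which defines a variant PRC1, 0.01 (SE 0.10).

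**Figure D2:**
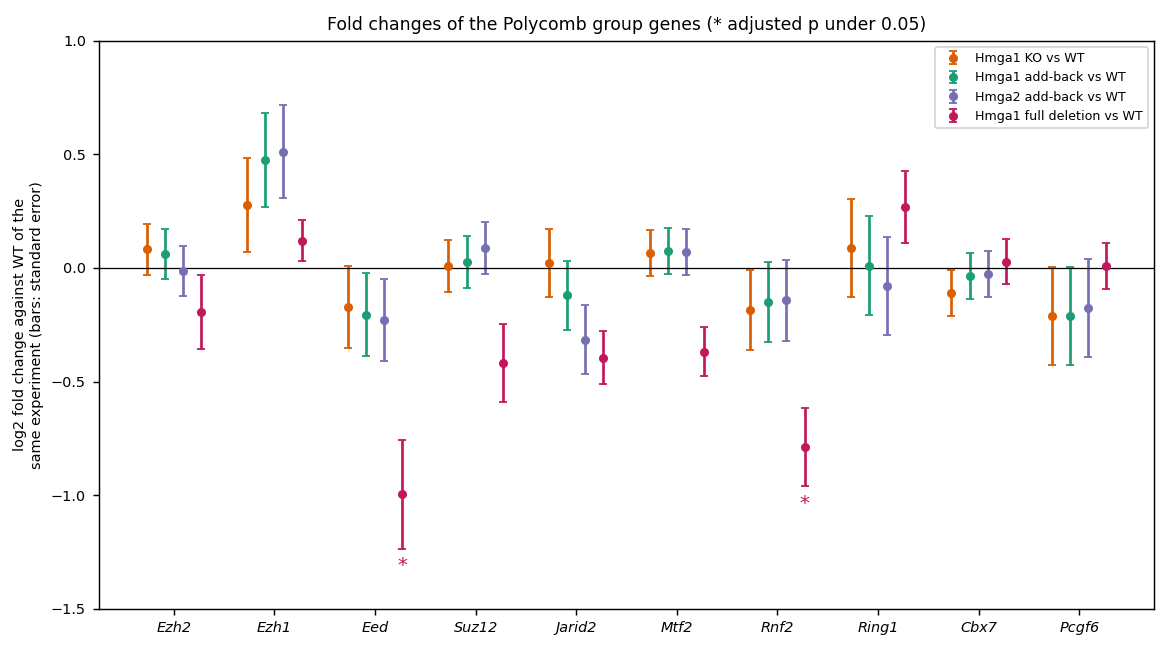
Log2 fold change against WT of the same experiment (y axis) for the 10 members (x axis) in 4 comparisons. Points are edgeR estimates, bars their standard errors, and asterisks mark an adjusted p under 0.05. Only Eed and Rnf2 in the full deletion carry one, at -0.997 and -0.79.

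The size of these differences depended on WT b. Without it the log2 fold change of Eed was -0.66 (adjusted p = 4.24e-08 by edgeR) and that of Rnf2 -0.58 (adjusted p = 2.58e-07 by edgeR). Jarid2 (-0.34), Mtf2 (-0.30) and Suz12 (-0.20) then passed as well, so that 5 members were called, all lower, where 42.5% of all genes were called and 22% as lower. The value of Ezh2 was 0.00 without WT b. Without WT c, or without any of the deletion samples, 0 members passed by edgeR, although Eed remained between -0.98 and -1.12 and Rnf2 between -0.77 and -0.87 there. The loss of the call went with few calls at all, since 0.0305% of all genes passed without WT c. With the letter as a replicate block the values were -0.94 for Eed (adjusted p = 0.0516 by edgeR) and -0.77 for Rnf2 (adjusted p = 0.0505 by edgeR).

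**Figure D3:**
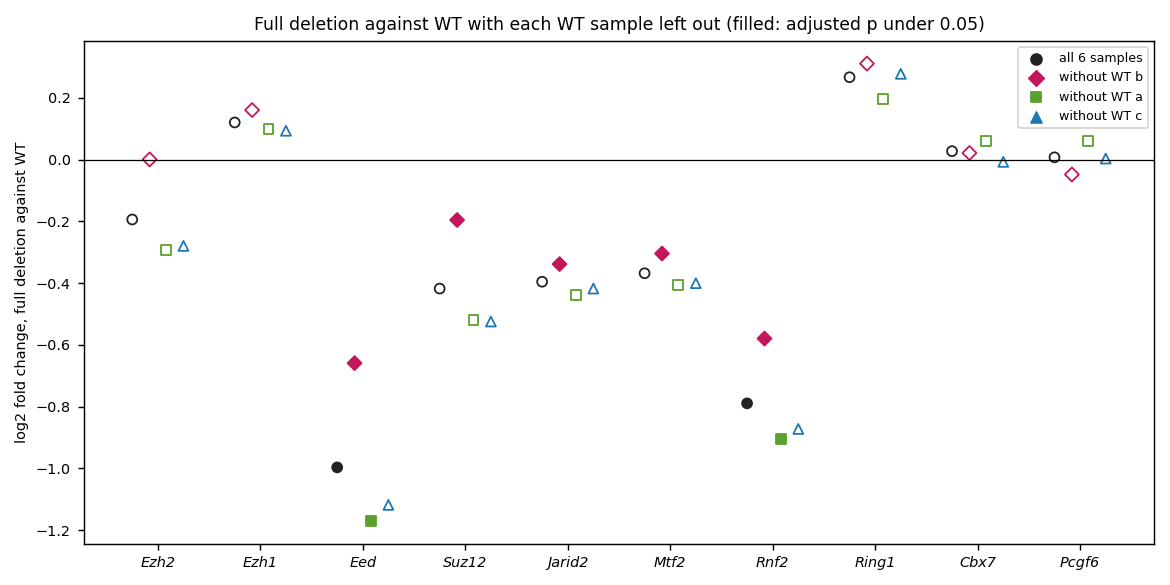
Log2 fold change of the full deletion against WT (y axis) for each member (x axis), with all 6 samples and with each WT sample left out in turn; filled symbols have an adjusted p under 0.05 by edgeR. Eed moves from -0.997 to -0.66 without WT b and Ezh2 from -0.19 to 0.00.

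Levels of other lists were taken beside these values. The summed level of the 8 ESC markers was 4360 to 7421 CPM in the second WT, with WT b at the top, and 4022 to 4129 in the deletion. The 8 fibroblast markers summed to 3.80 to 6.84 CPM in WT and 7.50 to 7.99 in the deletion, with Col3a1, Dcn and Postn at 0 in both. The 6 primitive endoderm markers summed to 283.5 to 343.6 and 264.8 to 278.4 CPM. Gene by gene the direction was mixed. The 5 that were tested had a median log2 fold change of 0.37, with 3 higher and 2 lower. By edgeR 0 passed, and 3 had an unadjusted p under 0.05, against 37% of all genes. The part of these lists in the result was not tested, and in bulk samples fewer cells of a type and less RNA per cell cannot be told apart.

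In the first experiment the Hmga1 KO and both add-backs were compared with WT in 1 fit with the batch letter as a term. WT c is alone in its batch, so these comparisons rest on batches a and b. By edgeR 0 of 10 members passed against WT in the KO or in either add-back, where 0.0647%, 0.0431% and 0.165% of the 13912 genes tested did (KO, Hmga1 and Hmga2 add-back in turn). DESeq2 and limma-trend also gave 0. At an unadjusted p under 0.05 there were 0, 1 and 1 members, where 12.6%, 13.3% and 16.9% of all genes lay under it, and the gene was Ezh1 in both add-backs. The 3 comparisons share their WT samples.

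Ezh1, at 4.27, 5.71 and 3.66 RPKM in WT, had 5.66 and 6.40 in the KO, 7.68 and 6.09 in the line labelled Hmga1 add-back, and 8.02 and 6.11 with Hmga2 added back. Only KO a, at 5.66, lay within the range of WT. The log2 fold change was 0.28 in the KO, 0.47 in the line labelled Hmga1 add-back and 0.51 with Hmga2 added back (SE 0.21 each). The adjusted p was 0.604, 0.375 and 0.267 by edgeR. Within batch a these samples stood at 132.6% to 187.9% of the CPM of WT a, and within batch b at 106.6% to 112.0% of WT b. All 6 lay above WT of their own batch, by far more in batch a. Without WT b the Hmga2 add-back value was 0.81, with an adjusted p of 0.0438 by edgeR, in a fit that called 9.36% of all genes.

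The other members showed no common shift. Ezh2 lay between 49.98 and 61.8 RPKM in all 9 samples, the narrowest range among the members, and its log2 fold changes were 0.08 for the KO, 0.06 for the line labelled Hmga1 add-back and -0.01 with Hmga2 added back. Eed had 217, 237 and 281 RPKM in WT, 178 and 232 in the KO, 146 and 268 in the line labelled Hmga1 add-back and 148 and 258 with Hmga2 added back. Its log2 fold changes were -0.17, -0.21 and -0.23 (SE 0.18 each), and the groups overlapped. Those of Rnf2 were -0.19, -0.15 and -0.14 (SE 0.18 each), and those of Pcgf6 -0.21, -0.21 and -0.18 (SE 0.22 or less).

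For several members the direction differed between batches. In batch a, Eed stood at 66.9% to 82.0% of WT, Rnf2 at 70.8% to 79.9% and Pcgf6 at 60.6% to 72.2%. In batch b the same genes stood at 98.1% to 113.4%, 98.9% to 117.7% and 113.4% to 126.4%. Mtf2 lay above WT in all 6 pairs, but only at 100.7% to 109.1% of it. Cbx7 lay above in 1 of 6. The levels themselves differed between batches in all 4 genotypes. Mean RPKM in batch b was 1.74 times that in batch a for Mtf2, 1.70 times for Pcgf6, 1.44 times for Eed and 1.33 times for Suz12, and 0.598 times for Ring1. The 4 samples of batch a did not overlap the 4 of batch b for 6 members, Mtf2, Suz12, Pcgf6 and Eed, which were higher in b, and Ring1 and Cbx7, which were higher in a. How many of all genes separate by batch was not counted. Samples of the same letter deviated together across genes (r from 0.319 to 0.758), so the difference between batches is not one of these members alone.

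**Figure D4:**
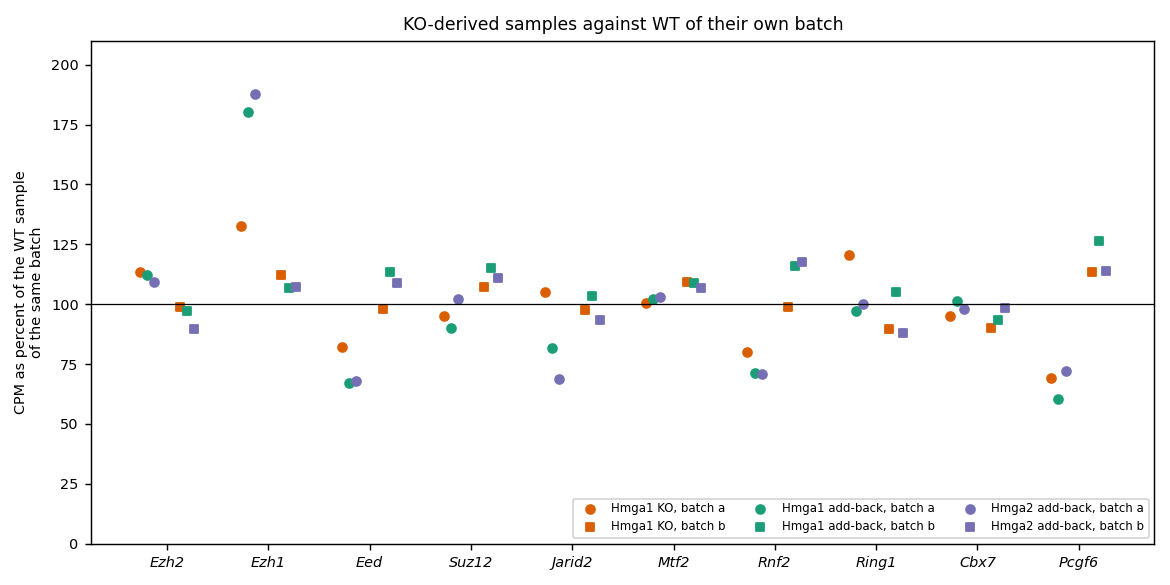
CPM of each member in the KO-derived samples as a percent of the WT sample of the same batch (y axis, linear from 0); circles are batch a and squares batch b, and the line marks 100%. Ezh1 lies above the line in all 6 pairs, and Eed, Rnf2 and Pcgf6 lie below it in all 3 pairs of batch a.

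Jarid2 was lowest within each batch in the Hmga2 add-back, at 98.8 and 143.9 RPKM, against 144.0, 153.7 and 146.5 in WT. The sample of the line labelled Hmga1 add-back in batch a, at 117.7, was also below every WT sample. The log2 fold change of the Hmga2 add-back was -0.32 (SE 0.15, adjusted p = 0.326 by edgeR). Suz12 (39.6 to 60.5 RPKM over the 9 samples), Ring1 (2.35 to 4.92) and Cbx7 (19.9 to 31.9) had log2 fold changes between -0.11 and 0.09 in the 3 comparisons. Cbx7 was lowest in WT c, the sample that is alone in its batch.

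The add-back lines were also set against the KO. For the line labelled Hmga1 add-back, whose Hmga1 count was not above that of the KO, this compares the lines as labelled. By edgeR 0 of 10 members passed in it against KO, in the Hmga2 add-back against KO and between the add-backs, where 0%, 0.0144% and 0.0144% of all genes did. DESeq2 and limma-trend gave 0 as well. At an unadjusted p under 0.05 there were 0 members in each, where 2.8%, 5.09% and 1.27% of all genes lay under it. Among these 3 comparisons the largest difference was that of Jarid2 in the Hmga2 add-back against KO, -0.34 (SE 0.15, adjusted p = 0.877 by edgeR).

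Whether the full deletion and the frameshift KO differ in their effects on the members was tested as the difference of both effects in a joint fit of all 15 samples. By edgeR 0 of 10 members passed, where 0.375% of 13050 genes did. At an unadjusted p under 0.05 there were 2 members, where 18.7% of all genes lay under it. For Eed the full-deletion effect minus the KO effect was -0.84 (SE 0.36, adjusted p = 0.253 by edgeR), for Rnf2 -0.62 (SE 0.29, adjusted p = 0.270 by edgeR) and for Mtf2 -0.45 (SE 0.16, adjusted p = 0.232 by edgeR). Limma-trend gave 0 and DESeq2 gave 1, Mtf2 (adjusted p = 0.0454 by DESeq2's Wald test), where DESeq2 called 2.52% of all genes. The fall of Eed and Rnf2 in the full deletion was therefore not shown to differ from their values in the KO.

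The balance between paralogs was measured within each sample, which removes library scaling. The ratio of Ring1 to Rnf2 was 2.04 times as high in the full deletion as in its WT, a log2 difference of 1.03, and the 3 deletion samples lay above all 3 WT samples. Without WT b the difference was 0.90. The ratio of Ezh1 to Ezh2 was 1.23 times as high (log2 difference 0.29, or 0.16 without WT b), also without overlap. The exact permutation test gave p = 0.1 for both, two-sided, which is the smallest p that 3 against 3 samples allow, so the design cannot reach the threshold. The ratio of Mtf2 to Jarid2, both accessory to PRC2, differed by 0.03 (exact permutation p = 0.3).

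In the first experiment the ratio of Ezh1 to Ezh2 was 1.54 times that of WT in the line labelled Hmga1 add-back (log2 difference 0.62) and 1.66 times in the Hmga2 add-back (0.73), with no overlap, and 1.33 times in the KO (0.42), with overlap. The exact permutation p values were 0.2, 0.2 and 0.4, and 3 against 2 samples cannot go below 0.2. This test does not account for the batch, and WT c, alone in its batch, had the lowest ratio (log2 -4.08, against -3.55 and -3.32 in WT a and b). Without WT c, so within batches a and b, the log2 differences were 0.41, 0.52 and 0.20 in the same order. The ratio of Ring1 to Rnf2 followed the batch, higher in every batch a sample than in any batch b sample, and its differences from WT of 0.34, 0.27 and 0.16 each turned negative when the batch a sample of the group was left out (-0.25, -0.25 and -0.52). Over the 12 tests of ratios the smallest p is set by the number of samples, and no adjusted value can pass.

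**Figure D5:**
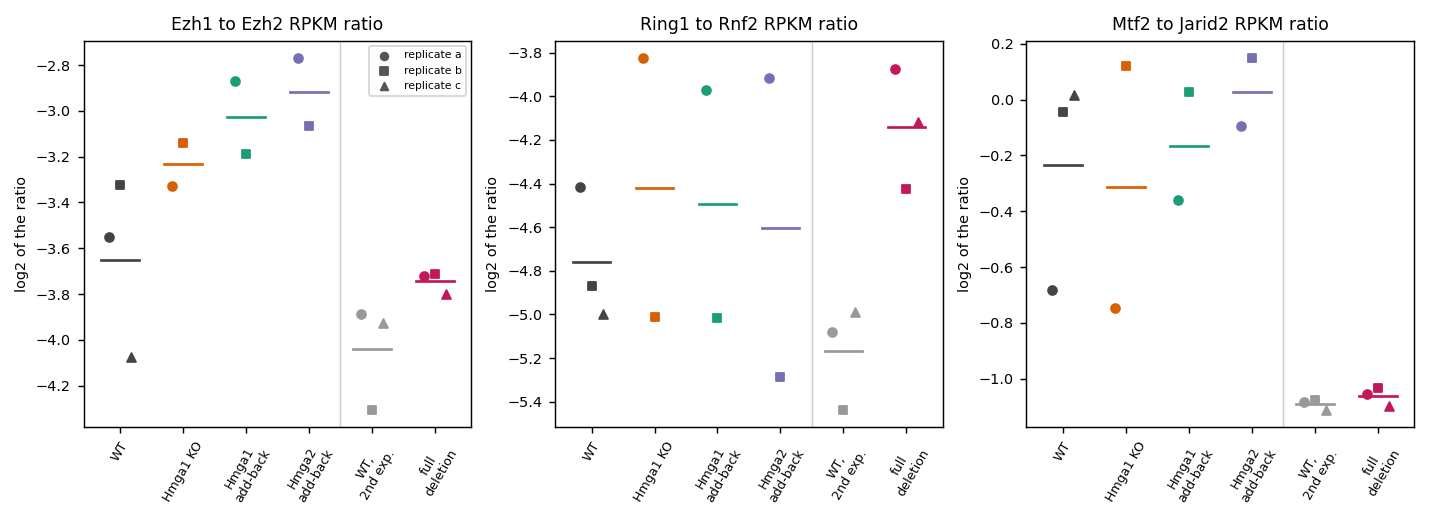
Log2 of the RPKM ratio of each pair of related genes (y axis) in every sample, by group (x axis); lines are group means and symbols the replicate letter. The Ring1 to Rnf2 ratio is 2.04 times as high in the full deletion as in its WT and the 2 groups do not overlap.

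The wider Polycomb family was described by a list of 34 other genes of PRC2, PRC1, variant PRC1 and the deubiquitinase complex, of which 33 were tested. In the full deletion 3 rose and 0 fell by edgeR, where 8.25% of all genes were called, and 10 had an unadjusted p under 0.05, against 37% of all genes. Phf19, a Polycomb-like partner of PRC2 as Mtf2 is, had 0.841, 0.850 and 0.781 RPKM in WT and 1.81, 1.71 and 1.88 in the deletion, a log2 fold change of 1.13 (SE 0.14, adjusted p = 0.0175 by edgeR). Phc2, a polyhomeotic subunit of PRC1, had 0.836, 0.683 and 0.653 against 1.47, 1.28 and 1.25, a value of 0.87 (SE 0.16, adjusted p = 0.0309 by edgeR). Scmh1, a sex comb on midleg homolog, had 1.05, 1.03 and 1.02 against 1.60, 1.45 and 1.56, a value of 0.57 (SE 0.13, adjusted p = 0.0444 by edgeR). In each, WT b lay with the other WT samples, the deletion samples lay above all of them, and the level was far below that of Eed or Rnf2. Without WT c or without any deletion sample 0 of these 33 passed by edgeR, and without WT b 15 did, where 42.5% of all genes were called. The call of Scmh1 was also lost with DESeq2 size factors (0.54, adjusted p = 0.0503), the replicate block (0.57, adjusted p = 0.0785) and without WT a (0.58, adjusted p = 0.0607, all by edgeR). DESeq2's Wald test called 9 of the 33 with all samples, where it called 24.7% of all genes, and limma-trend the same 3. In the 3 comparisons of KO-derived groups with WT 0 of the 33 passed by edgeR, DESeq2 or limma-trend, with 6, 4 and 6 at an unadjusted p under 0.05, against 12.6%, 13.3% and 16.9% of all genes.

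Targets of Polycomb were described by 24 developmental regulators that are classically silenced in ESC, such as Pax6, Gata4 and Hand1. By edgeR 0 passed in any of the 4 comparisons with WT. In the full deletion 8 had enough counts, with a median log2 fold change of 0.02. Of these, 2 had an unadjusted p under 0.05, where 37% of all genes lay under it. In the first experiment 10 had enough counts. Their medians were -1.08 for the KO, -0.77 for the line labelled Hmga1 add-back and -1.04 with Hmga2 added back. In turn 5, 3 and 5 of them had an unadjusted p under 0.05, where 12.6%, 13.3% and 16.9% of all genes lay under it. Limma-trend also called 0 in each of the 4, while DESeq2's Wald test called 2 in each KO-derived group, where it called 1.43%, 1.44% and 2.36% of all genes, and 0 in the full deletion, where it called 24.7%. These were Cdkn2a and Gata6 in the KO, Cdkn2a and Pax6 in the line labelled Hmga1 add-back, and Gata4 and Pax6 in the Hmga2 add-back, named after their values were seen. The summed level of the 24 genes was 46.7 to 63.1 CPM in WT and 23.95 to 34.3 CPM over the KO-derived samples. In the second experiment it was 23.4 to 29.4 CPM in WT and 24.8 to 27.6 in the deletion, so that the WT samples of the first experiment stood above all others. Gata4, Gata6 and Sox17 of this list also mark primitive endoderm, and Pax6 and Neurog2 also mark neural progenitors. The 6 primitive endoderm markers summed to 485.0 to 734.0 CPM in WT, 329.8 to 568.3 in the KO, 365.4 and 781.7 in the line labelled Hmga1 add-back and 464.2 and 468.8 with Hmga2 added back. The first of the add-back lines thus held both a sample below and a sample above every WT sample. Gene by gene, all 6 had a log2 fold change below 0 in each of the 3 comparisons with WT. Their medians were -1.74 in the KO, -0.82 in the line labelled Hmga1 add-back and -1.44 with Hmga2 added back. By edgeR 0 passed, and 4, 0 and 3 had an unadjusted p under 0.05, against 12.6%, 13.3% and 16.9% of all genes. The 5 neural progenitor markers summed to 62.1 to 79.8 CPM in WT and lay below that in all 6 KO-derived samples, at 36.1 to 51.9 in the KO, 40.4 to 41.2 in the line labelled Hmga1 add-back and 34.3 to 43.1 with Hmga2 added back. The 3 of them tested had median log2 fold changes of -0.96, -1.09 and -1.35, and 0 passed by edgeR. In each comparison 2 had an unadjusted p under 0.05, against the same 12.6%, 13.3% and 16.9% of all genes. The part of these lineages in the lower medians was not tested.

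The genes whose pattern was most like that of Ezh2 over the 15 samples, on log2 CPM with the mean of each experiment subtracted, were Swap70 (Pearson's r = 0.965), Nrd1 (0.941) and Xpc (0.937) among 13049 genes. For Ezh1 they were Ypel2 (0.953), Serac1 (0.949) and Ppfia4 (0.943). These values are descriptions over samples that share batches and libraries.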

How the data were processed

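The authors prepared strand-specific libraries from total RNA depleted of ribosomal RNA, aligned reads to mm9 (NCBIM37) with QuasR and bowtie, and placed a read with several equally good alignments at 1 of them at random. The deposited values are raw counts of same-strand reads per UCSC known gene, without normalization. Every column was matched to a sample. Here genes that averaged 10 or more counts per sample were tested with edgeR 4.0.16 in R 4.3.3 (TMM, quasi-likelihood test, Benjamini-Hochberg adjustment over all genes tested), separately for each experiment, and a member was called at an adjusted p under 0.05. CPM is the count scaled to a common normalized library size, and RPKM divides it by the exonic length in the tables. In the first experiment the study describes the letters as batches, and they entered the model. Same-letter samples deviated together (r from 0.319 to 0.758 across genes). In the second they did not (0.0639, 0.0703 and -0.0546), and no term was used, as in the study. Alternatives were other scaling, filters, thresholds, DESeq2 1.42.0, limma-trend (limma 3.58.1, prior count 2), the block, and leaving out each sample. Ratios were tested by exact permutation over samples (scipy 1.17.1). The fits were tested on simulated data. Recovery of a log2 fold change of 1 fell short there for the KO and for the full-deletion effect minus the KO effect. The pass criterion was then set to a larger change. The lack of member calls in these comparisons therefore does not show that smaller differences are absent. The members and lists were chosen with earlier results of these data known. All members are named, and of other Polycomb genes those called. According to the study's methods, RNA came from at least 2 separate cultures collected on different days. Whether each sample of a group is a culture of its own is not stated. The p-values of the fits therefore measure the spread between samples of 1 line per genotype. In the first experiment this is the spread left after the batch term.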

Additional observations from a re-analysis of the deposited data

How the results depend on the processing

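In the full deletion 2 members were called. The count was 1 with DESeq2 size factors and 1 with limma-trend (Rnf2 in both), 4 with DESeq2's Wald test (with Jarid2 and Mtf2), 0 with the replicate block, and 0 at an adjusted p under 0.01, with or without a minimum fold. It ranged from 0 to 5 when single samples were left out (5 without WT b, 2 without WT a, 0 without WT c or any deletion sample). It stayed at 2 with summed counts, no filter, or a mean count of at least 50. Scaling by summed counts took the all-gene median of log2 fold changes from 0.04 to 0.32 and the calls from 586 higher and 494 lower to 544 and 120. Calls over all genes numbered 1080, against 664 with summed counts, 3232 with DESeq2, 396 with the replicate block and 5592 without WT b. In the Hmga2 add-back against WT the count of 0 became 1 (Ezh1) without WT b, and leaving out single samples otherwise gave 0. For the difference between full deletion and KO it became 1 (Mtf2) with DESeq2's Wald test, and ranged from 0 to 1 when single samples were left out. The other comparisons stayed at 0 under every alternative run, and without the replicate block in the first experiment 0 members were called. Of 1380 fold changes of single members under an alternative, 12 lost and 8 gained a call. A further 117 changed sign, all among values called in neither fit, so no called direction turned. The letters of the second experiment do not pair its samples, so a call lost under the block is not described as a weaker effect. Where 1 sample of a group remained, it was assumed to vary like the other groups. Ring1 had 64 to 357 counts per sample, the fewest of the members. Why calls differed was not tested.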
